A study of Homo sapiens with 6 samples.

Results

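The proteasome subunit genes were followed in SK-MES-1 cells with and without exosomes of fibrotic lung fibroblasts. Members were all genes of the deposited count table whose symbol begins with PSMA, PSMB, PSMC, PSMD or PSME and a digit, leaving out PSMB8 and PSMB9, which gave 36 of 15761 genes. One of the 36, PSMC3IP, encodes a cofactor of meiotic recombination rather than a proteasome part, and it is given apart. The other 35 comprised 14 genes of the core particle (PSMA and PSMB) and 19 PSMC and PSMD genes of the regulatory particle, including 3 that encode its assembly chaperones. The remaining pair, PSME3 and PSME4, encodes activators. PSMA8, PSMB3, PSMB11, PSMC4, PSME1 and PSME2 were not analysed here, so the list is not the whole complex.

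The proteasome is the main protease of the cytosol and nucleus and degrades proteins that carry ubiquitin chains. Its core particle is a barrel of stacked rings, in which alpha subunits (PSMA) form the outer rings and guard the entrance, and beta subunits (PSMB) form the inner rings and hold the proteolytic sites. The regulatory particle binds the ubiquitin chain, removes it and feeds the unfolded protein into the barrel. Its PSMC subunits are a ring of ATPases, and its PSMD subunits are scaffolds, ubiquitin receptors and a deubiquitinase. Activators of the PSME family can dock on the core in place of the regulatory particle. Many subunit genes are transcribed together under the factor NFE2L1, which accumulates when proteolysis falls short.

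SK-MES-1 is a long-established cell line grown from a squamous carcinoma of the lung, labelled wild type in both groups. The 3 exosome libraries came from cells kept 72 h in complete medium with 20 µg/ml of vesicles from lung fibroblasts of idiopathic pulmonary fibrosis, a scarring lung disease. The 3 control libraries came from parallel cells without added vesicles, and no vesicles of another source were tested. The labels do not say whether the cultures of a group were independent, so the p-values below measure the spread between these samples, which may be technical. Total RNA was sequenced to 11346639 to 13334508 counts per library.

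Library 3 stood apart in each group. The chi-square per gene between libraries was 3.11 for exosome libraries 1 and 2 and 7.15 to 9.34 for pairs with exosome library 3, against 2.29 for control libraries 1 and 2 and 11.7 to 15.6 for pairs with control library 3. All squamous and lineage markers were checked as a list of 12, of which 10 were in the table and 6 could be tested. The squamous keratins KRT5, KRT6A and KRT14 and the desmosomal cadherin DSC3 were at no more than 0.444 CPM in any library. CPM are counts scaled to the library's total and by a normalisation factor (TMM) for each library. TP63 averaged 2.21 ± 0.158 CPM with exosomes and 1.56 ± 0.459 CPM in control, while KRT8 and KRT18 supplied most of the list's summed level. That sum was 2694 to 2839 CPM in exosome libraries and 3349 to 3689 CPM in control libraries. Of the 6 tested markers 4 were lower and 0 higher in the uncorrected fit described below, beside 26.1% and 25.6% of all tested genes. Among the lower was CDH1, at 20.1 ± 1.17 CPM with exosomes and 53.0 ± 2.71 CPM in control. Of 11 lung fibroblast markers 9 were in the table, and their sum was 55.3 to 60.3 CPM with exosomes and 119 to 127 CPM in control. Most of it came from COL1A1 (29.8 ± 2.10 CPM with exosomes, 61.9 ± 2.55 in control) and COL1A2 (13.2 ± 1.80 with exosomes, 42.05 ± 3.81 in control). COL3A1, PDGFRA, THY1 and FAP were each under 0.5 CPM in all libraries. Of the 5 tested fibroblast markers 4 were lower and 0 higher in the uncorrected fit. Leukocyte markers summed to 190.3 to 204 CPM with exosomes and 153 to 187 CPM in control, nearly all of it CD68, with PTPRC and CD3E near 0. The alveolar marker SFTPC was at most 0.245 CPM. The part of these shifts in the results below was not tested.

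With exosomes, 6 proteasome genes were higher and 2 were lower both in the fit as the counts stood and in a second fit that removed each library's trend on GC content and transcript length. The 6 were the beta subunit genes PSMB4, PSMB5 and PSMB10, the ATPase gene PSMC5, and PSMD3 and PSMD4 of the regulatory particle. The 2 were PSME4, an activator gene, and PSMD1, the gene of a large scaffold subunit. Apart from PSMB10, these changes were small, between 0.36 and 0.69 on the log2 scale without the correction. The libraries are bulk RNA brought to a common scale. A change in the share of messenger RNA and a change in RNA per cell therefore cannot be told apart.

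Counted in either direction, the proteasome list did not stand out from all genes by its number of calls. By direction, its share of lower calls was smaller and its share of higher calls larger in both fits, a difference that was not tested. In the uncorrected fit (edgeR quasi-likelihood test, adjusted p under 0.05), 11 of the 34 tested members were higher and 3 were lower, 32.4% and 8.82%, while 25.6% and 26.1% of all 12449 tested genes were higher and lower. In either direction that came to 41.2% of members and 51.7% of all genes. In the corrected fit again 11 were higher and 3 lower, beside 18.2% and 17.3% of all genes (35.4% in either direction), but 6 of the 14 calls in each fit were of members that passed no test in the other. Calls in the same direction in both fits were 6 higher and 2 lower, 17.6% and 5.88% of members, beside 12.7% and 11.7% of all genes. Calls in either direction in both fits thus came to 23.5% of members and 24.3% of all genes. Exosome and control libraries did not overlap for 18 members, 12 above and 6 below, which is 52.9% beside 59.3% of all genes (29.2% above and 30.2% below). The median log2 fold change was 0.05 over the members and -0.004 over all tested genes, and 0.04 against -0.003 after correction. PSMA6 was the member that did not pass the filter on low counts.

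**Figure D1:**
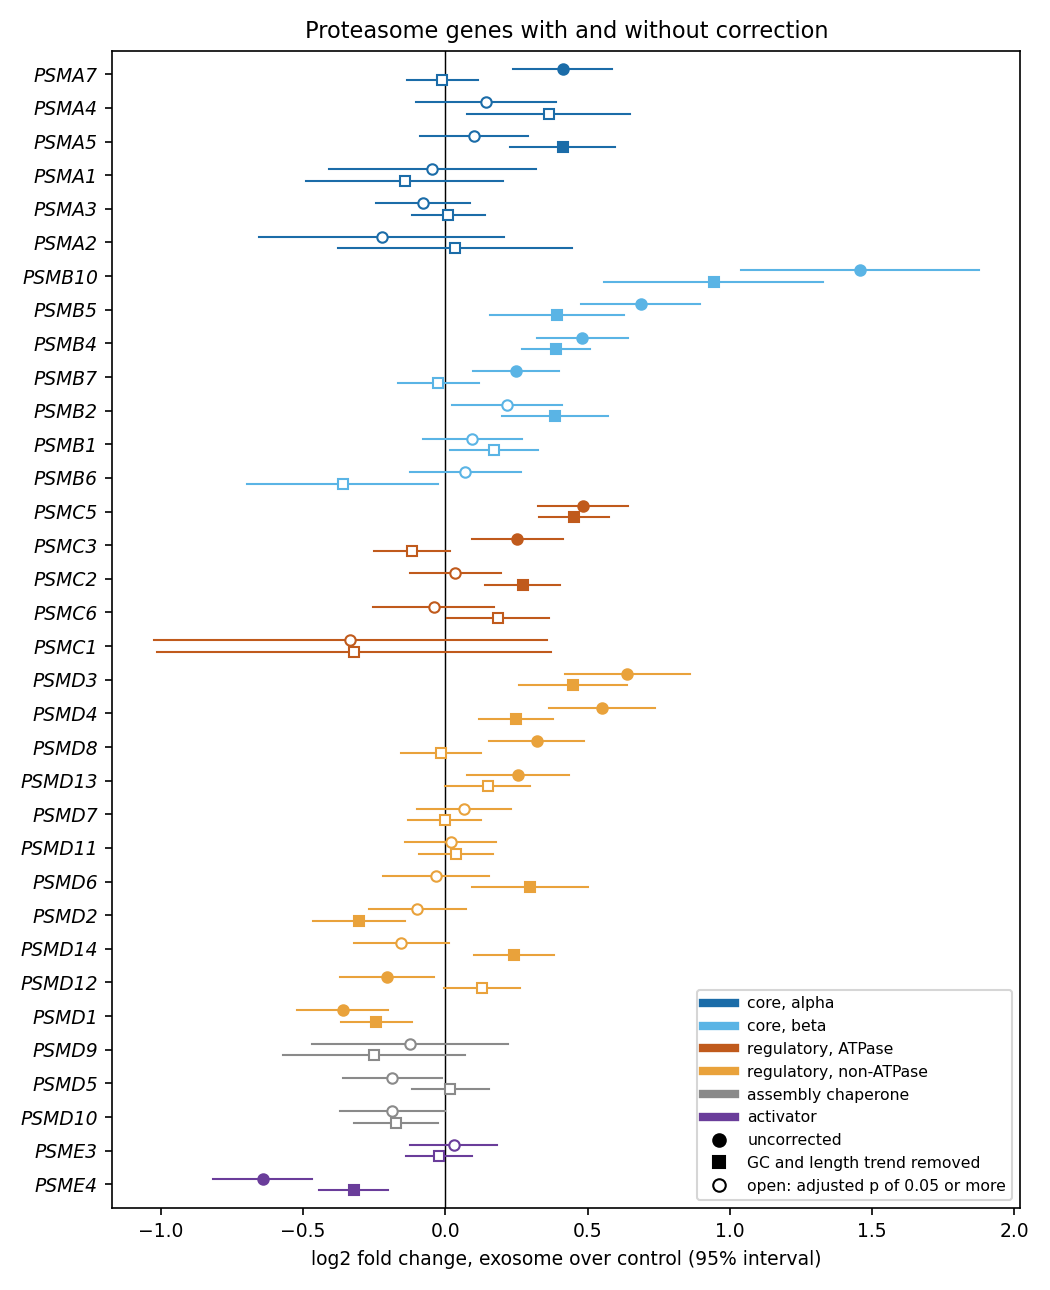
Log2 fold change, exosome over control, of the 34 tested proteasome genes (points) with 95% intervals (lines). Circles are the uncorrected fit and squares the fit with the GC and length trend removed; filled symbols passed an adjusted p of 0.05. Only PSMB10 lies beyond 1 on the log2 scale, and the 8 genes filled in both shapes are PSMB10, PSMB5, PSMB4, PSMC5, PSMD3, PSMD4, PSMD1 and PSME4.

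The beta subunit genes held the most marked members of the core. PSMB5 encodes the chymotrypsin-like catalytic subunit, the site that proteasome inhibitors used in myeloma chiefly block. It stood at 96.4, 97.3 and 78.7 CPM in the 3 exosome libraries and at 51.1, 53.6 and 64.5 CPM in the 3 control libraries. All exosome libraries lay above all control libraries, with library 3 of each group nearest to the other group. The log2 fold change was 0.69 ± 0.10 (SE, adjusted p = 1.32e-05), and 0.39 ± 0.11 (adjusted p = 0.0132) after correction. When 1 library was left out of the corrected fit, its adjusted p reached at most 0.0485.

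PSMB4, a beta subunit without a proteolytic site, had the most transcripts per length of all 35 members. Its level was 254, 260.4 and 233 CPM with exosomes and 182, 187 and 167 CPM in control, again without overlap. The log2 fold change was 0.48 ± 0.078 (adjusted p = 3.02e-05) and stayed at 0.39 ± 0.057 (adjusted p = 2.21e-05) after correction.

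PSMB10 encodes the inducible counterpart of PSMB7, which replaces it in the immunoproteasome of cells exposed to interferon. It was scarce in both groups, with 9.84, 8.06 and 7.41 CPM with exosomes and 3.19, 3.27 and 2.76 CPM in control, and the lowest exosome value lay above the highest control value. The log2 fold change of 1.46 ± 0.20 (adjusted p = 5.96e-06) was the largest among the members, and it was 0.94 ± 0.19 (adjusted p = 0.000488) after correction. In the reference annotation 60.0% of its coding sequence also lies in a readthrough gene of the same strand, AC040162.1, which had at most 0.443 CPM, so the reads given to PSMB10 are an uncertain part of its transcripts. The other inducible subunits, PSMB8 and PSMB9, were not analysed here.

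The other catalytic subunits behaved less clearly. PSMB7, the trypsin-like subunit, was at 157, 159 and 159 CPM with exosomes and 134, 131 and 135 CPM in control, a close spread in each group and no overlap. Its log2 fold change of 0.25 ± 0.073 (adjusted p = 0.007) turned to -0.02 ± 0.068 (adjusted p = 0.813) after correction. PSMB6, the caspase-like subunit, was at 108, 111 and 94.7 CPM with exosomes and 87.9, 96.5 and 114 CPM in control, where library 3 was above every exosome library. Its log2 fold change was 0.07 with a 95% interval of -0.12 to 0.26 (adjusted p = 0.549), and -0.36 with an interval of -0.70 to -0.02 (adjusted p = 0.0926) after correction. The corrected value passed the test without control library 1 (-0.49, adjusted p = 0.00121) or without control library 3, where it was closer to 0 (-0.16, adjusted p = 0.0400). Among the beta subunits without a proteolytic site, PSMB2 passed the test only after correction (log2 fold change 0.22, adjusted p = 0.0548, corrected 0.39, adjusted p = 0.0029). Its uncorrected call came with control library 1 or 2 left out (adjusted p = 0.0196 and 0.0428). PSMB1 passed in neither fit (0.09 and 0.17), but its corrected value passed without control library 3 or exosome library 3 (0.22 and 0.25).

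The alpha subunit genes gave a call in 1 fit at most. PSMA7 was at 217, 206 and 182 CPM with exosomes and 149, 165 and 140.4 CPM in control without overlap, and its log2 fold change of 0.41 ± 0.084 (adjusted p = 0.000334) came to -0.01 ± 0.06 (adjusted p = 0.912) after correction. PSMA5 went the other way round: 56.5, 58.5 and 49.3 CPM with exosomes overlapped 50.9, 50.04 and 52.2 CPM in control, and a log2 fold change of 0.10 ± 0.092 (adjusted p = 0.378) became 0.41 ± 0.089 (adjusted p = 0.00119). The longest PSMA7 transcript has 55.5% GC and the longest PSMA5 transcript 37.2%, and the correction moved the genes in opposite directions. PSMA3, an abundant ring subunit, was at 141 ± 11.2 CPM with exosomes and 149 ± 7.19 CPM in control (SD, n = 3 each), and its log2 fold change had a 95% interval of -0.24 to 0.09. PSMA4 had a corrected log2 fold change of 0.36 that missed the threshold (adjusted p = 0.0515), and it passed when any 1 control library was left out (0.20 to 0.47, highest adjusted p = 0.0348). PSMA1 and PSMA2 were scarce and passed in neither fit (-0.05 and -0.22). PSMA6 had 0 to 9 counts per library and was not tested.

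Of the ATPase genes, PSMC5 moved in both fits. It was at 148, 149 and 146 CPM in exosome libraries and 111, 108 and 98.2 CPM in control libraries, with the exosome libraries within 3 CPM of each other. The log2 fold change was 0.48 ± 0.077 (adjusted p = 2.54e-05) and hardly moved with the correction, at 0.45 ± 0.059 (adjusted p = 5.95e-06). Of its exon bases 19.5% lie opposite FTSJ3, an rRNA-processing methyltransferase gene on the other strand, which was also higher (log2 fold change 0.39, adjusted p = 0.000551). The sources used here do not say whether the counting used strand, so reads in that stretch may belong to either gene. PSMC3 was at 124, 117 and 113 CPM with exosomes and 97.3, 101 and 99.0 CPM in control, and its log2 fold change of 0.25 (adjusted p = 0.00876) turned to -0.12 (adjusted p = 0.171) after correction. PSMC2 did the reverse, with 0.04 (adjusted p = 0.721) and a corrected 0.27 (adjusted p = 0.00221). PSMC6 passed in neither fit (-0.04 and 0.18), nor did PSMC1, whose 1.41 to 3.54 CPM gave a wide 95% interval of -1.03 to 0.36.

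PSMD4 and PSMD3 were the PSMD genes that were higher in both fits. PSMD4 encodes a ubiquitin receptor, the subunit that captures the chain on the substrate. It was at 168, 173 and 157 CPM with exosomes and 126, 118 and 95.5 CPM in control, with control library 3 the lowest. The log2 fold change was 0.55 ± 0.09 (adjusted p = 3.71e-05) and 0.25 ± 0.063 (adjusted p = 0.00424) after correction. PSMD3, a structural subunit of the lid, was at 182, 173 and 160.4 CPM with exosomes and 124, 119 and 88.6 CPM in control, where library 3 was again the lowest. Its log2 fold change was 0.64 ± 0.10 (adjusted p = 7.74e-05) and 0.45 ± 0.088 (adjusted p = 0.00122) after correction. Without control library 3 the uncorrected log2 fold changes of PSMD3 and PSMD4 were 0.52 and 0.45, the lowest of the fits that leave out 1 library.

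PSMD1 was the regulatory particle gene that was lower in both fits. PSMD1 and PSMD2 encode the large scaffold subunits at the base of the regulatory particle, to which ubiquitin receptors and shuttle proteins bind. PSMD1 was at 136, 143 and 155 CPM with exosomes and 184, 179 and 194 CPM in control, without overlap. Its log2 fold change was -0.36 ± 0.077 (adjusted p = 0.000547) and -0.24 ± 0.059 (adjusted p = 0.00324) after correction. PSMD2, the member with the most counts, was at 353, 340.1 and 353 CPM with exosomes and 356, 342 and 422 CPM in control, where the high library 3 stood alone. It was lower only after correction (log2 fold change -0.30, adjusted p = 0.00484, uncorrected -0.10, adjusted p = 0.333), and stood at -0.19 without control library 3.

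The remaining lid genes shifted their calls between the fits. PSMD8 and PSMD13 were higher before the correction only (0.32, adjusted p = 0.00228, and 0.26, adjusted p = 0.0175), with corrected values of -0.02 and 0.15. The call on PSMD13 was lost without control library 2 (adjusted p = 0.0515). PSMD12 was lower before the correction (-0.20, adjusted p = 0.0362) and 0.13 (adjusted p = 0.13) after it, and its uncorrected call was lost without control library 1 (adjusted p = 0.140), control library 2 (0.145), exosome library 1 (0.180) or exosome library 2 (0.0582). PSMD14, the deubiquitinase that cuts the chain from the substrate, was at 89.4, 93.9 and 91.9 CPM with exosomes and 103, 108 and 94.9 CPM in control. It gave -0.15 (adjusted p = 0.111) and, after correction, 0.24 (adjusted p = 0.00805). At 32.0% its longest transcript, used for the correction, has the lowest GC content of the members. The authors' own values imply a shorter length for PSMD14 (1954 against 4890 bases). Without exosome library 1 its corrected call was lost (adjusted p = 0.0654), and without control library 3 it was lower in the uncorrected fit (-0.19, adjusted p = 0.0462). PSMD6 was likewise higher only after correction (0.30, adjusted p = 0.0246, uncorrected -0.03), a call that was lost without exosome library 1 (adjusted p = 0.110) or 2 (adjusted p = 0.0815). PSMD7, the partner of PSMD14, and PSMD11 passed in neither fit, with 95% intervals of -0.10 to 0.23 and -0.14 to 0.18.

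The assembly chaperones of the regulatory particle gave no call in either fit. PSMD5, PSMD9 and PSMD10 help to build the ATPase ring and are not part of the finished complex. PSMD5 was at 74.0, 83.7 and 88.2 CPM with exosomes and 90.5, 95.1 and 94.2 CPM in control, and PSMD10, also known as the oncoprotein gankyrin, was at 53.6, 63.1 and 61.7 CPM with exosomes and 68.2, 70.5 and 64.5 CPM in control. In both genes all exosome libraries were below all control libraries, with log2 fold changes of -0.19 (adjusted p = 0.0681) and -0.19 (adjusted p = 0.0842). PSMD5 passed without exosome library 3 (-0.24, adjusted p = 0.0226). After correction PSMD5 stood at 0.02 and PSMD10 at -0.17 (adjusted p = 0.0618). PSMD9 overlapped between the groups (-0.12 and -0.25).

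PSME4 fell the furthest of the members. It encodes a large single-chain activator found mainly in the nucleus. Its level was 170.0, 174 and 208 CPM in exosome libraries and 276, 278 and 308 CPM in control libraries, without overlap and with library 3 the highest of each group. The log2 fold change was -0.64 ± 0.084 (adjusted p = 3.28e-06), and -0.32 ± 0.058 (adjusted p = 0.00022) with the trend removed. At 7099 bases its longest transcript was the longest of the members, and longer transcripts tended to be lower with exosomes throughout the table. PSME3, the other activator measured, which forms a ring on the core of nuclear proteasomes, was at 169.8, 178 and 178 CPM with exosomes and 177, 169.9 and 169 CPM in control. Its log2 fold change of 0.03 had a narrow 95% interval of -0.12 to 0.18.

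**Figure D2:**
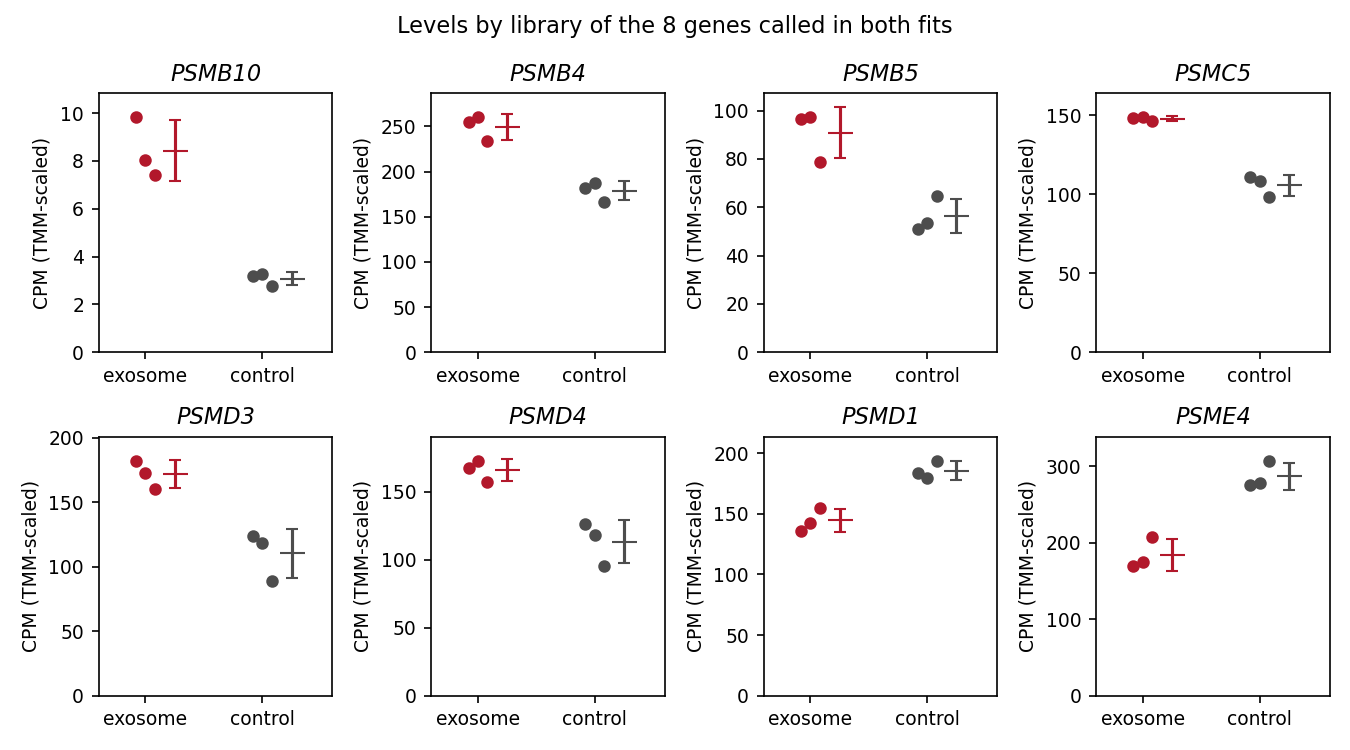
CPM (scaled with TMM factors, y axes from 0) of the 8 genes called in both fits in each exosome library (red) and control library (grey), with the mean and SD of 3 beside the points. The groups do not overlap in any of the 8, from PSMB10 (7.41 to 9.84 CPM with exosomes, 2.76 to 3.27 CPM in control) to PSME4 (170.0 to 208 CPM with exosomes, 276 to 308 CPM in control).

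The core particle was compared with the regulatory particle by medians, counts and summed levels. The median log2 fold change was 0.14 over 13 tested core genes and -0.03 over 19 tested PSMC and PSMD genes, and 0.17 and 0.04 after correction. The core median therefore lay 0.18 above that of the regulatory particle, and 0.13 after correction. Of the core genes 5 were higher and 0 lower in each fit (4 beta and 1 alpha each time), and of the PSMC and PSMD genes 6 were higher and 2 lower in each fit. In both fits at once 3 core genes were higher, all of them beta subunits, beside 3 higher and 1 lower in the regulatory particle. Over all tested genes 25.6% were higher and 26.1% lower, and 18.2% and 17.3% after correction. In both fits at once these shares were 12.7% and 11.7%.

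The 7 tested beta genes had a median log2 fold change of 0.25 (0.39 corrected), and the 6 tested alpha genes of 0.03 (0.02 corrected). The 5 tested ATPase genes had 0.04 (0.18 corrected), the 11 non-ATPase genes 0.02 (0.13 corrected) and the 3 chaperones -0.19 (-0.17 corrected). With the chaperones left out, the median of the regulatory particle was 0.03 (0.14 corrected), so its position below the core after correction narrowed to 0.03 on the log2 scale. Which members are counted thus decided much of the difference, and no test was made of it, since members of one complex are not replicates.

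By library, the median core level relative to the control mean was 0.15, 0.23 and 0.20 on the log2 scale in exosome libraries and 0.06, -0.03 and -0.02 in control libraries. The same median for PSMC and PSMD genes was 0.06, -0.01 and 0.03 with exosomes and 0.04, 0.03 and -0.10 in control. The core medians did not overlap between the groups and those of the regulatory particle did. After correction the core median was 0.23, 0.27 and 0.11 with exosomes and 0.02, -0.08 and 0.03 in control, and the regulatory median was 0.080, 0.054 and 0.078 with exosomes and 0.050, 0.024 and -0.084 in control, with no overlap in either. The core median minus the regulatory median was 0.09, 0.24 and 0.17 with exosomes and 0.01, -0.06 and 0.08 in control, and after correction 0.15, 0.21 and 0.03 with exosomes and -0.03, -0.10 and 0.12 in control, where the groups overlapped. Leaving out control library 1 or 2 raised the median log2 fold change of the core to 0.25 or 0.22 and that of the regulatory particle to 0.039 or 0.030, above 0. In the corrected fit the core median minus the regulatory median was 0.056 without control library 2, 0.048 without exosome library 2 and 0.23 without exosome library 3.

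Summed over genes, transcripts per length gave the same picture of the core. The authors' FPKM, which count fragments relative to transcript length and library total, summed to 1103, 1146 and 1018 over the core genes in exosome libraries and to 858, 860.1 and 872 in control libraries. For the PSMC and PSMD genes the sums were 942, 948 and 913 with exosomes and 827, 818 and 778 in control. Neither sum overlapped between the groups. The ratio of core to regulatory FPKM was 1.17, 1.21 and 1.11 with exosomes and 1.04, 1.05 and 1.12 in control, where library 3 matched exosome library 3. FPKM are scaled to library totals, which places the median gene 0.08 higher (log2, exosome over control) than the TMM scaling used for the fold changes. A few abundant genes dominate such sums, and PSMB4 alone supplied 266 ± 18.6 FPKM with exosomes and 179.9 ± 9.24 FPKM in control.

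**Figure D3:**
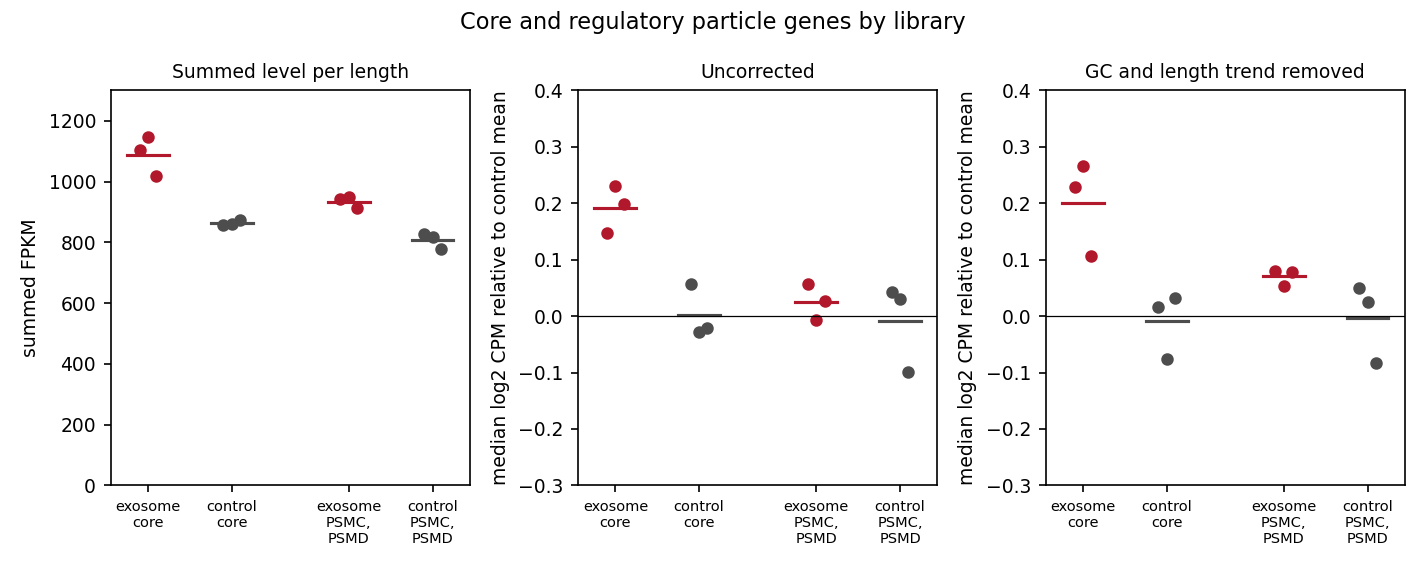
Left, FPKM summed over the 14 core genes and the 19 PSMC and PSMD genes in each exosome (red) and control (grey) library, with lines at the means. Middle and right, the median log2 CPM of the tested genes relative to their control mean, without and with the GC and length trend removed. The core sums lie at 1018 to 1146 FPKM with exosomes and 858 to 872 FPKM in control.

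The fold changes of the members followed GC content and length as those of all genes did. Spearman's rho between log2 fold change and GC content of the longest transcript was 0.56 over the 34 members and 0.62 over all 12449 genes, given as a description across genes that share the same 6 libraries. For transcript length rho was -0.56 over the members and -0.39 over all genes. The 11 members that were higher in the uncorrected fit had 47.5% to 60.1% GC (median 52.7%), and the 3 that were lower had 37.9% to 44.2%, around a median of 48.4% over all genes. After correction rho with GC content was -0.19 over the members and 0.04 over all genes. The correction takes out any change that follows GC content or length, whatever its source, and the source was not tested. It rests on the longest transcript, and the authors' counts and FPKM imply another length for some members. These were 1954 against 4890 bases for PSMD14, 1795 against 4583 for PSMD6 and 964 against 2067 for PSMB4. For PSMD12 and PSME4 the lengths were equal (4406 and 7099 bases). The effect of this on the corrected values was not tested.

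**Figure D4:**
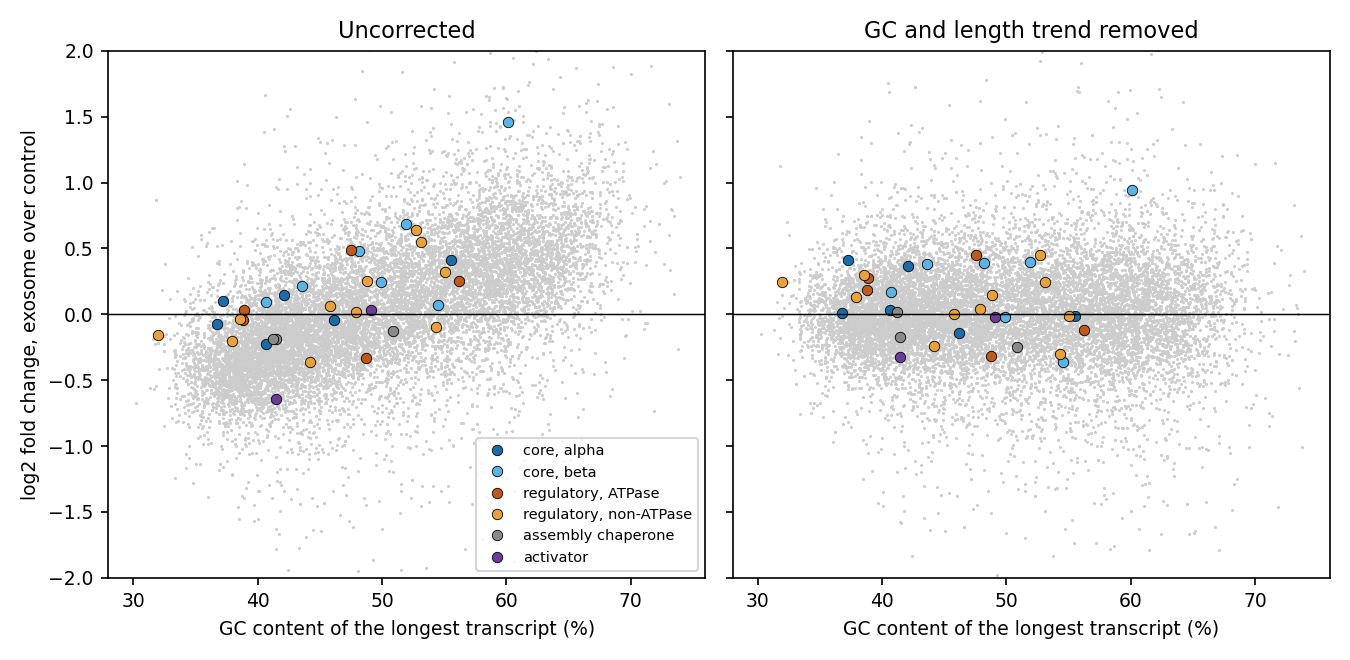
Log2 fold change, exosome over control, against the GC content of the longest transcript for all 12449 tested genes (grey) and the 34 proteasome genes (coloured by class), uncorrected (left) and with the GC and length trend removed (right). The axes leave out 31 genes on the left and 28 on the right that lie beyond 2 in either direction, none of them a member. On the left the members climb with GC content as the grey cloud does, and on the right PSMB10 at 60.1% GC remains the highest member.

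On the FPKM scale the members spanned a wide range of levels, although the complex holds its subunits in fixed proportion. PSMB4 led with 266 ± 18.6 FPKM in exosome libraries and 179.9 ± 9.24 FPKM in control libraries (SD, n = 3 each). PSMB7 (166 ± 2.07 with exosomes, 132 ± 2.86 in control) and PSMA3 (149 ± 11.1 with exosomes, 148 ± 6.20 in control) came next. PSMA7 stood at 132 ± 13.3 FPKM with exosomes and 93.9 ± 7.39 FPKM in control. In control libraries 29 members lay at 10.9 FPKM or above and 6 at 3.23 FPKM or below. The order was alike in the groups (Spearman's rho 0.96 over 35 genes, a description), and no gene moved by more than 7 places, the shift of PSMB5. Most neighbours in the order did not differ beyond their spread: the ranges of neighbouring genes were apart in 14 of 34 pairs with exosomes and 11 of 34 in control.

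**Figure D5:**
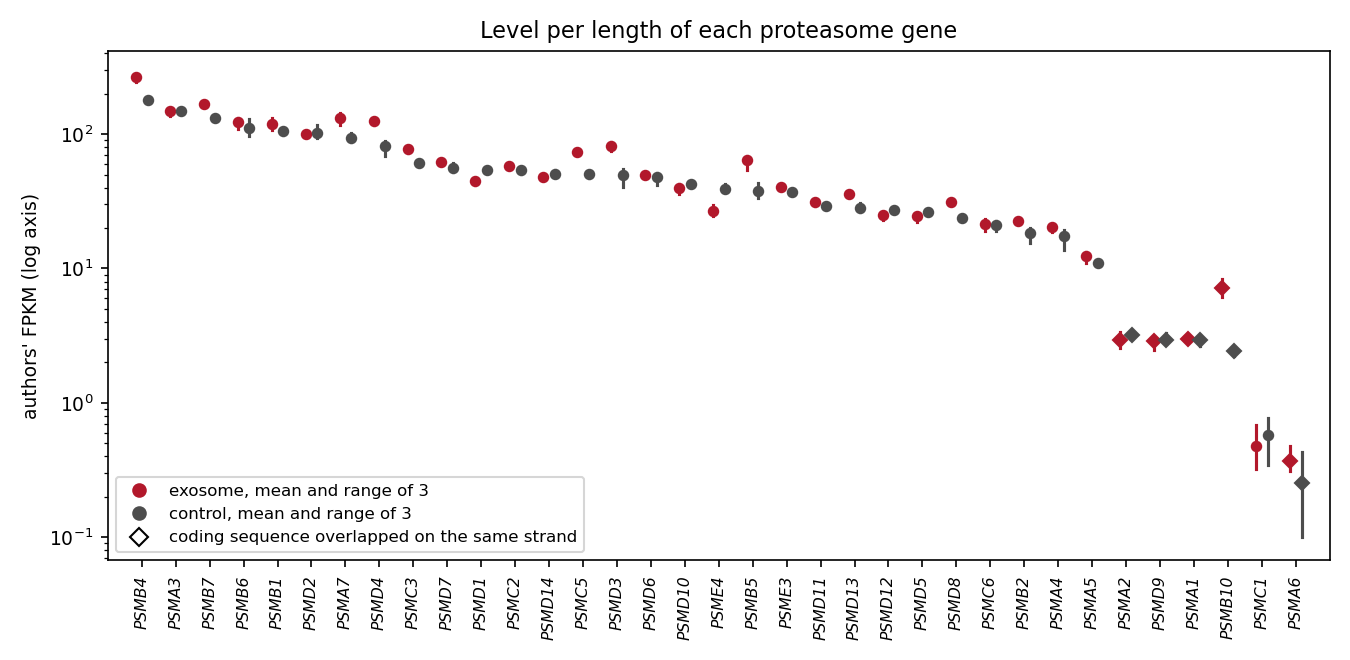
The authors' FPKM (log axis) of the 35 proteasome genes in exosome (red) and control (grey) libraries, ordered by the control mean; points are means and lines the range of 3, with the lower end of PSMA6 in control drawn at 0.1 for a library at 0. Diamonds mark the 5 genes whose coding sequence is overlapped by another gene of the same strand, all of them among the 6 lowest.

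Of the 6 scarce members 5 overlap a second gene of the same strand. The 6 were PSMA2, PSMD9, PSMA1, PSMB10, PSMC1 and PSMA6, of which PSMA1, PSMA2 and PSMA6 encode constant parts of every core particle. In the reference annotation, the coding sequences of PSMA2 (100%), PSMA1 (88.6%), PSMA6 (87.6%), PSMD9 (68.3%) and PSMB10 (60.0%) overlap a second gene of the same strand. This held for none of the 29 members above 10 FPKM. The partners AC040162.1 (PSMB10), AC018523.2 (PSMA1) and AL121594.1 (PSMA6) had at most 0.443, 0.370 and 0.182 CPM. AC010132.3 (PSMA2) and AC069503.2 (PSMD9) were not analysed here. WDR66 also overlaps exons of PSMD9 but shares no 100-base window with the longest PSMD9 transcript. WDR66 had 21.5 to 22.5 CPM with exosomes and 21.1 to 22.3 CPM in control. PSMC1 has no such overlap, but 95.5% of its 100-base windows recur in other annotated transcripts, among them its pseudogene PSMC1P1 and the overlapping gene NRDE2, which had 51.3 to 59.2 CPM with exosomes and 52.7 to 64.6 CPM in control. Shared windows are not particular to scarce members: PSMD7 has 41.2% and PSMA6 4.47%. Reads that fit more than 1 gene are often dropped in counting; the sources used here do not say how they were treated, and the part of this was not tested. Levels of these 6 genes are therefore uncertain. Leaving out PSMA1, PSMA2, PSMB10 and PSMD9, the tested genes with a same-strand overlap, gave a core median 0.19 above that of the regulatory particle. After correction these medians were 0.27 for the core and 0.083 for the regulatory particle. PSMC1 was kept in this comparison.

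Promoter sequences show what the genes called in both fits carry around their starts. RefSeq promoters (GRCh38.p14, 250 bases before to 50 after a start) were found for 30 of the 35 members, in 36 windows, and for 7 of the 8 genes called in both fits. The stretches below were chosen because they hold letters tied to proteasome transcription, and capitals mark the match. Only matches before the start are shown. TGACNNNGC is the core of the antioxidant response element, which NFE2L1 and its relatives bind, CCAAT is the box bound by NF-Y, and the third is the palindromic element of nuclear respiratory factor, with 1 free position. Both strands were searched, and a match on the other strand shows as the reverse complement.
PSMD3 chr17:39980760-39980788, plus strand, antioxidant element: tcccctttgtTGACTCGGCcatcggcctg
PSMC5 chr17:63827654-63827682, plus strand, antioxidant element reversed: gaccggatctGCTGTGTCAgcgccgccct
PSME4 chr2:53971009-53971037, minus strand, antioxidant element reversed: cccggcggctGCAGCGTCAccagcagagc
PSMB5 chr14:23035370-23035394, minus strand, CCAAT: attattttacCCAATtttagaaggt
PSMC5 chr17:63827411-63827430, plus strand, CCAAT: tcttcaggtcCCAATcctcc
PSMD3 chr17:39980580-39980604, plus strand, CCAAT reversed: tgtaacccagATTGGagcctgaggg
PSMB4 chr1:151399540-151399569, plus strand, respiratory factor element reversed: gcttccgttgGCGCAAGCGCtttcattttt
The antioxidant letters stand in the windows of PSMD3 and PSMC5, which were higher, and of PSME4 and PSMD1, which were lower, in PSMD1 only after the start (bases 39 to 47). The respiratory factor element also stands after a start of PSMC5 (bases 6 to 15). They occurred in 22.2% of member windows (8 of 36) and 13.3% of all 35116 windows. CCAAT occurred in 44.4% and 34.6%, and the respiratory factor element in 19.4% of member windows and 5.78% of all windows, or 9.63% of windows of tested genes. GGGCGG, the GC box, occurred in 61.1% of member windows and 45.0% of all windows, or 65.5% of windows of tested genes. PSMB10, also called in both fits, had a promoter among those searched but held none of these elements or boxes on either strand. Windows of 1 gene can overlap, and these shares describe letters, not binding.

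Genes that work with the proteasome moved in no single direction. The counts of each list here and below stand beside 25.6% higher and 26.1% lower of all 12449 tested genes. After correction these shares were 18.2% and 17.3%. Of 16 tested genes for other proteasome parts and for assembly, 4 were higher and 2 lower (5 and 2 corrected), with a median log2 fold change of 0.01 (0.12 corrected). Higher in both fits were PSMG4, a partner in the chaperone pair that starts the alpha ring, at 25.6 ± 3.90 CPM with exosomes and 16.4 ± 1.38 CPM in control (0.64, adjusted p = 0.000308, corrected 0.55, adjusted p = 0.000989), and PSMF1, an inhibitor of the core (0.19, corrected 0.23), named after its value was seen. The partner of PSMG4 in that pair, PSMG3, was higher in the uncorrected fit alone (0.53, corrected 0.06). The deubiquitinase USP14 was lower in the uncorrected fit alone (-0.40, corrected -0.05). The ubiquitin receptor gene ADRM1 was at 113 ± 14.0 CPM with exosomes and 84.6 ± 7.67 CPM in control, and its log2 fold change of 0.41 (adjusted p = 0.00094) reversed to -0.17 (adjusted p = 0.041) after correction.

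Of 11 genes that control proteasome transcription, 4 were higher and 3 lower before correction, and 0 higher and 2 lower after it. The master factor NFE2L1 was at 194, 183 and 189.9 CPM with exosomes and 176, 165 and 151 CPM in control (log2 fold change 0.20, adjusted p = 0.0339, corrected 0.06, adjusted p = 0.498). Its relative NFE2L3 was lower in both fits, at 49.1 ± 3.30 CPM with exosomes and 61.6 ± 2.35 CPM in control (-0.33, adjusted p = 0.00405, corrected -0.28, adjusted p = 0.00564), as was NFE2L2 (-0.21, corrected -0.16). NFE2L1 and NFE2L2 are given here after their values were seen. The dimer partners MAFF and MAFG and the NFE2L2 inhibitor KEAP1 were higher before correction (0.56, 0.32 and 0.28) and passed no test after it.

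Of 11 tested genes that deliver substrates, 2 were higher and 2 lower (4 and 1 corrected). NSFL1C, a cofactor of the unfoldase VCP, was at 107 ± 1.65 CPM with exosomes and 66.0 ± 9.68 CPM in control (0.70, adjusted p = 4.4e-06, corrected 0.72, adjusted p = 1.79e-06). The shuttles UBQLN1 and UBQLN2 were lower in the uncorrected fit (-0.25 and -0.20), and UBQLN1 reversed after correction (0.16, adjusted p = 0.0339). BAG6 was not analysed here, and SQSTM1 had at most 0.0739 CPM.

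Of 14 ubiquitin, activating and conjugating enzyme genes, 2 were higher and 3 lower (3 and 3 corrected). UBE2S and UBE2C, the conjugating enzymes of the anaphase-promoting complex that acts in mitosis, were higher in both fits. UBE2S was at 176 ± 24.8 CPM with exosomes and 86.9 ± 4.60 CPM in control (1.02, adjusted p = 3.18e-08, corrected 0.71, adjusted p = 5.81e-08), and UBE2C was at 99.3 ± 11.5 CPM with exosomes and 57.1 ± 9.56 CPM in control (0.80, corrected 0.52). The activating enzyme gene UBA6 and the conjugating enzyme gene UBE2D1 were lower in the uncorrected fit alone (-0.49 and -0.30, corrected 0.02 and -0.06). The ubiquitin gene UBB passed no test before correction (0.06) and was lower after it (-0.22); it is named after its value was seen.

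The 8 genes called in both fits lie on 5 chromosomes. PSMB4 is on chromosome 1 from 151399534 to 151401944 and PSMD4 on chromosome 1 from 151254703 to 151267479, PSMD1 on chromosome 2 from 231056864 to 231172827 and PSME4 on chromosome 2 from 53864067 to 53970840. PSMB5 is on chromosome 14 from 23016543 to 23035230, PSMB10 on chromosome 16 from 67934502 to 67937087, PSMC5 on chromosome 17 from 63827152 to 63832026 and PSMD3 on chromosome 17 from 39980797 to 39997960 (GRCh38, all protein-coding, positions counted from 1). PSMC3IP, taken by its symbol only, was at 5.36, 5.84 and 5.26 CPM with exosomes and 2.70, 3.54 and 4.02 CPM in control, and its uncorrected log2 fold change was 0.68 (adjusted p = 0.012). The corrected value of 0.47 missed the threshold (adjusted p = 0.0889).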

How the data were processed

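RNA of 6 SK-MES-1 samples, 3 with and 3 without exosomes, was isolated with Trizol, and the libraries are NEBNext Ultra ones, per the labels' protocols. The submitters' processing notes list STAR and hg38 (GRCh38). Which program and annotation gave the counts, and whether strand was used, the sources used here do not say. Per the file headers, the deposited table holds the authors' whole-number read counts per gene, their signal (counts divided by a size factor per library), their FPKM, and their log2 fold changes and p-values. Counts were used for every test and FPKM for levels between genes; the signal and the authors' log2 fold changes and p-values, as deposited, were not used. Groups came from the sample titles.

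The test was the robust quasi-likelihood fit of edgeR 4.0.16 (R 4.3.3) with group as the only term, after filterByExpr and TMM scaling, with Benjamini-Hochberg adjustment over 12449 genes and a threshold of 0.05. CPM are scaled with the TMM factors, and 1 CPM before that scaling is 11.3 to 13.3 reads. The correction smoothed each library's log2 CPM, relative to the gene's mean, on the GC content and log2 length of the longest GENCODE 29 transcript (loess, span 0.3) and entered the result as an offset. The scripts were checked on simulated counts. These carried no GC or length trend, so they could not check how the correction handles such a trend. Alternatives were RLE factors, library totals, other filters, DESeq2 1.42.0, limma-voom (limma 3.58.1), a stricter threshold (0.01), leaving out each library in turn, and a block for the replicate number. Every coding member could be named, and up to 4 genes with the smallest adjusted p of each other list. Members and lists were chosen with earlier results of these data known. Same-numbered samples of the groups deviated together with correlations of 0.07, 0.10 and 0.21, and the labels give no shared source, so the numbers were not taken as pairs.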

Additional observations from a re-analysis of the deposited data

How the results depend on the processing

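All 8 genes called in both fits kept their direction and their call in the 12 fits that leave out 1 library, with and without the correction. The core median stayed above the regulatory median under every alternative run, by 0.13 to 0.18 (log2) in fits of all libraries and all tested members, and by 0.03 after correction with the chaperones left out. With library totals the medians were 0.23 for the core and 0.051 for PSMC and PSMD genes. With the GC and length offset the regulatory median was 0.037 (0.0375 with the replicate block too), and 2148 genes were lower. With that offset the uncorrected direction reversed, and the call was lost, for PSMA7 (-0.010), PSMB7 (-0.024), PSMC3 (-0.12), PSMD12 (0.13) and PSMD8 (-0.015). With the offset and the replicate block their values were -0.0093, -0.022, -0.12, 0.13 and -0.015. PSMD14 and PSMD6 reversed and gained a call (0.24 and 0.30 with the offset, 0.24 and 0.30 with the block too). The offset's own construction moved them, and the source of the trend was not tested. The replicate block, fitted although the labels do not say whether the numbers pair the samples, gave 12 members higher and 5 lower (PSMD5 and PSMD10 joined). Over all genes it gave 3444 higher and 3525 lower. Each library correlated best with the library of its own number in the other group, but for library 1 the margin was narrow. Control library 1 correlated at 0.0664 with exosome library 1 and at 0.0623 with exosome library 2. Exosome library 1 correlated at 0.0659 with control library 2. The library 3 samples, which stood apart in each group, correlated at 0.206.

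Without 1 library, 2503 to 3234 genes were higher and 2608 to 3375 lower, members 11 to 12 and 2 to 4, while the core median ran from 0.11 to 0.25, the regulatory median from -0.041 to 0.039 and their difference from 0.14 to 0.21. With the offset as well (added after seeing the data), 1639 to 2312 genes were higher and 1445 to 2044 lower, members 9 to 13 and 3 to 4. There the core median ran from 0.11 to 0.25, the regulatory median from 0.017 to 0.081 and their difference from 0.048 to 0.23. PSMD12 also lost its call with library totals (adjusted p = 0.199), no filter (0.0600), DESeq2 (0.0515) and a threshold of 0.01, where PSMD13 lost its call too. PSMB2 gained one in the uncorrected fit under RLE factors, library totals, no filter, the block and limma-voom. Offsets on the table's own gene length and levels as CPM per length were not run, because no column used holds gene length. The lengths implied by counts and FPKM were not used for an offset. With 3 libraries per group no outlying sample can be tested. PSMA6, with 0 to 9 counts per library, was too scarce to test, and why it was scarce was not tested.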
